A study of Mus musculus with 15 samples.

Results

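Semaphorins are ligands that steer growing axons, vessels and epithelial sheets, and plexins and neuropilins are their cell-surface receptors. The count table held all 31 genes of the 3 families that were looked for, 20 semaphorins, 9 plexins and 2 neuropilins, each found by the Ensembl identifier of its symbol among 48709 genes. All 31 passed the filter on low counts, as did 18940 genes in all. The genes were chosen by family, with earlier results of these data known.

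RNA was sequenced from 4 groups of embryonic salivary gland tissue of mice of the outbred ICR strain: submandibular gland (SMG) epithelium (n = 4) and mesenchyme (n = 4) at embryonic day 11.5, and parotid gland (PG) epithelium (n = 3) and mesenchyme (n = 4) at embryonic day 12. No allele, transgene or treatment is named for any group, and the replicates are biological ones by the labels' protocols. Gland and embryonic day change together, so a difference between glands cannot be told apart from a difference between stages. The sources used here give neither the method of separating the layers nor the number of glands in a sample. The 2 comparisons of layers within a gland, the 2 comparisons of glands within a layer and the test of whether the layer difference itself differed between glands together make 5 comparisons.

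In mice, semaphorins are grouped into classes by structure. Class 3 members are secreted, classes 4, 5 and 6 span the membrane, and Sema7a is held at the surface by a lipid anchor. Most class 3 ligands bind Nrp1 or Nrp2, which carry the ligand but signal through a class A plexin or Plxnd1. Sema3e is the exception and can bind Plxnd1 directly. Membrane-bound semaphorins bind plexins without a neuropilin, for example Sema4d with Plxnb1, Sema4c with Plxnb2, Sema6 ligands with class A plexins and Sema7a with Plxnc1. Inside the cell a plexin acts on small GTPases of the Ras and Rap families and thereby on adhesion and the cytoskeleton. Neuropilins also bind vascular endothelial growth factors, and class 3 semaphorins have been studied in the branching of the embryonic submandibular gland.

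Total gene counts ran from 20561142 to 29552734 per library, so that 1 read was worth 0.0347 to 0.0484 CPM. CPM, the unit of the levels below, is the count scaled to a common library size, here with TMM factors. Labelled tissue and marker genes went together: the 9 epithelial markers, Cdh1 and Krt14 among them, summed to between 3485 and 6118 CPM in the epithelium libraries, and the 8 mesenchymal markers, such as Pdgfra and Col1a1, to between 7332 and 12281 CPM in the mesenchyme libraries. No marker was at 0 throughout a group. As a share of the mean in the epithelium of the same gland, the summed epithelial markers stood at 0.252% to 0.648% in the SMG mesenchyme libraries but at 15.4%, 3.73%, 2.73% and 4.61% in PG mesenchyme replicates 1 to 4. The summed mesenchymal markers, as a share of the mean in mesenchyme, stood at 1.09%, 1.18%, 3.99% and 0.811% in SMG epithelium replicates 1 to 4. PG epithelium replicates 1 to 3 held 1.06%, 4.66% and 1.52%. PG mesenchyme replicate 1 and PG epithelium replicate 2 held the largest share of their layer and are the 2 libraries said below to stand apart. Several results that rest on them, though not all, are also given without them. SMG epithelium replicate 3, at 3.99%, was likewise above its group, but it was kept when those 2 were left out together.

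3 promoters are shown, of genes with large layer differences described below: Sema3d was the ligand most enriched in epithelium, and Nrp2 and Plxnd1 were receptors enriched in mesenchyme. Nrp1, whose difference was larger than that of Plxnd1 in SMG and that of Nrp2 in PG, is not shown. Each line is RefSeq sequence of GRCm38.p6, 5′ to 3′ on the gene's strand, and ends directly before the RefSeq start of Sema3d and Plxnd1. The Nrp2 line is cut to end before the GENCODE start, which lies upstream of the RefSeq start, whereas the GENCODE start of Sema3d, 12383385, lies downstream of its window. The Sema3d window is chr5:12382916-12383165 on the plus strand, that of Nrp2 is chr1:62703067-62703284 on the plus strand and that of Plxnd1 is chr6:115995006-115995255 on the minus strand. Capitals mark matches, on either strand, to the GC box GGGCGG, the CCAAT box or the E-box CAGGTG, the form that SNAI and ZEB repressors can bind. TATAAA was searched as well and is in none of the 3.
Sema3d: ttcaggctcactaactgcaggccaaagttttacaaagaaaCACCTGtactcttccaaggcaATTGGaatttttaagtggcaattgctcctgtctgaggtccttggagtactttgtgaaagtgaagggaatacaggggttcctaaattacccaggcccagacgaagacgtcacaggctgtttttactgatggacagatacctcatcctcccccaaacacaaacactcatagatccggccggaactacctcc
Nrp2: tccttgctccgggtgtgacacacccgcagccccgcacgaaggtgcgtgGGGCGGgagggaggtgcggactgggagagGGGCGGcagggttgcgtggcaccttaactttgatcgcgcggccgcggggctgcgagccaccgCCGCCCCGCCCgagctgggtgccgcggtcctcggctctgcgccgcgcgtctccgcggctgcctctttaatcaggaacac
Plxnd1: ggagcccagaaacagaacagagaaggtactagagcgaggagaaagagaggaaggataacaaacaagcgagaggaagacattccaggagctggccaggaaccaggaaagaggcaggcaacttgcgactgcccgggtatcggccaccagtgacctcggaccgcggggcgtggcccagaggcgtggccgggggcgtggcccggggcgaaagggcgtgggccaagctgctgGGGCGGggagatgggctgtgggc

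The Sema3d window held 1 CCAAT box, 1 E-box and no GC box, and only 4 CpG dinucleotides. Nrp2 had 4 GC boxes, 2 of which overlap, and 28 CpG. A single GC box and 16 CpG were in the Plxnd1 window. RefSeq gave windows of 250 bases for 26 of the 31 genes, 37 windows in all. A GC box was in 27 of these (73.0%, against 32.7% of 32851 mouse promoter windows), a CCAAT box in 7 (18.9% against 33.8%), CAGGTG in 5 (13.5% against 17.2%) and TATAAA in none, against 12.4%. These are matches of letters and not measured binding sites.

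The group means of 14 ligands exceeded 5 CPM in SMG epithelium, of 15 in SMG mesenchyme, of 15 in PG epithelium and of 17 in PG mesenchyme. For the receptors the numbers were 6, 10, 9 and 10. Between genes, levels are comparable only per length of transcript, and values per kilobase (kb) use the union of a gene's annotated exons. Class 3 ligands summed to 142 ± 11.7 CPM per kb (SD, n = 4) in SMG epithelium and 37.2 ± 1.81 (n = 4) in SMG mesenchyme, and to 133 ± 8.73 (n = 3) in PG epithelium and 60.4 ± 8.38 (n = 4) in PG mesenchyme. The neuropilins, their receptors, ran the other way: 0.365 ± 0.307 and 1.26 ± 1.20 CPM per kb in SMG and PG epithelium, 32.0 ± 6.06 and 22.4 ± 2.84 in SMG and PG mesenchyme. Plexins differed less in sum, at 101 ± 12.9 and 99.5 ± 5.01 CPM per kb in SMG and PG epithelium and 77.1 ± 15.2 and 75.4 ± 14.2 in the mesenchymes.

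Sema3f, which binds mainly Nrp2, was the most abundant ligand per kb in all 4 groups, at 58.7 ± 4.26, 18.7 ± 2.97, 53.9 ± 4.16 and 33.5 ± 6.44 CPM per kb in SMG epithelium, SMG mesenchyme, PG epithelium and PG mesenchyme. In SMG mesenchyme its neighbours Sema6a (16.6 ± 2.16), Sema4c (15.2 ± 2.93) and Sema3a (14.9 ± 4.12) lay within the spread, and with the length of the longest transcript Sema3a came first there. Plxnb2, the receptor of Sema4c, led the receptors in all 4 groups, with 41.1 ± 5.16, 37.4 ± 7.64, 44.6 ± 4.01 and 36.1 ± 7.2 CPM per kb in the same order, although by the longest transcript Nrp1 came first in both mesenchymes. Next in both epithelia was Plxnb1 (31.4 ± 4.71 in SMG, 20.7 ± 0.779 in PG), and next in both mesenchymes was Nrp1 (19.6 ± 4.23 and 18 ± 3.61).

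**Figure D1:**
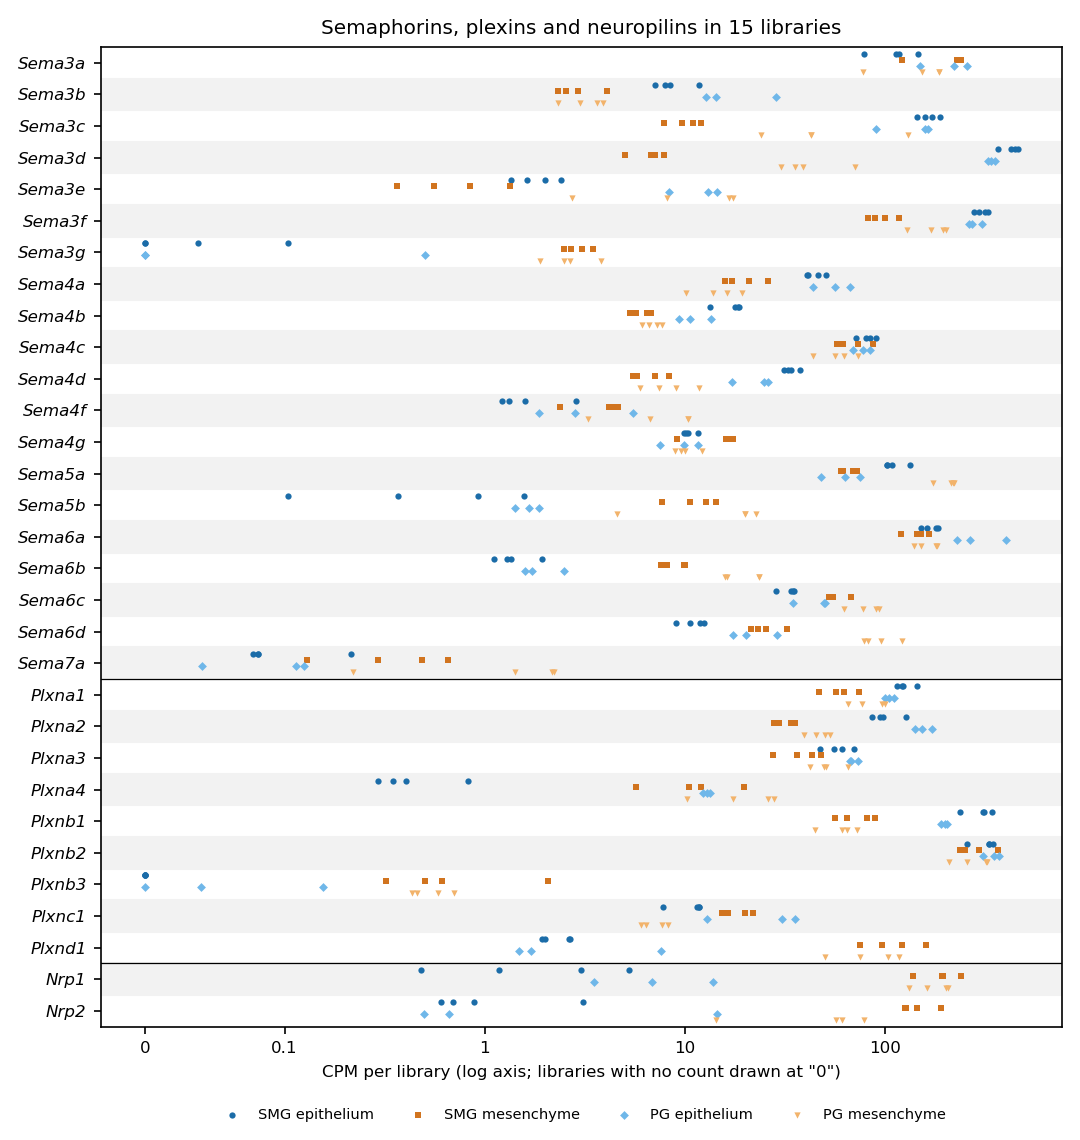
CPM of each of the 31 genes in each of the 15 libraries on a log axis, with colour and shape giving the group; a library without a count is drawn at 0. Nrp1, Nrp2 and Plxnd1 are lower in epithelium than in mesenchyme libraries, except that PG epithelium replicate 2 (14.5 CPM) and PG mesenchyme replicate 1 (14.3 CPM) meet for Nrp2, while Sema3c, Sema3d and Plxnb1 are highest in epithelium libraries.

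The genes lie on many chromosomes. On chromosome 5 of GRCm38 are Sema3d (12383385 to 12588948), Sema3a (13125414 to 13602565), Sema3e (14025276 to 14256689) and Sema3c (17574281 to 17730268), and chromosome 9 carries Sema3b (107597674 to 107609229) and Sema3f (107681500 to 107710475). Nrp1 (128358604 to 128503363) is on chromosome 8 and Nrp2 (62703285 to 62818695) on chromosome 1. Some members share exon bases with an annotated transcript of the opposite strand, which the unstranded kit cannot separate: 970 bases (10.7%) of Plxna1 with Gm26811, 334 (7.27%) of Sema4c with D430040D24Rik, 257 (2.68%) of Plxnb1 with Gm7628 and 110 (0.78%) of Plxna4 with Plxna4os3.

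Most of the family differed between the layers, with 4 of the 7 secreted ligands on the epithelial side and both neuropilins and Plxnd1 on the mesenchymal side in each gland. In SMG, 12 of the 31 genes were higher in epithelium and 15 lower at an adjusted p under 0.05, so that 87.1% were called against 51.9% of all genes tested (25.2% higher, 26.7% lower). In PG 11 were higher and 12 lower, or 74.2% against 46.0% (21.9% higher, 24.2% lower). The median size of the log2 difference over the family was 1.57 in SMG and 1.71 in PG, against 0.497 and 0.478 over all genes. Without PG mesenchyme replicate 1 and PG epithelium replicate 2, 13 were higher and 15 lower in SMG, and 11 higher and 11 lower in PG. The share of all genes called without these libraries is not given, so this recount and those below have no background to be set against.

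Among the secreted ligands, 4 of 7 were higher in epithelium in each gland, 2 lower in SMG and 1 lower in PG. Sema3d, a ligand of the neuropilins, was at 465, 450, 368 and 426 CPM in SMG epithelium and at 6.79, 5.03, 7.85 and 7.14 in SMG mesenchyme. In PG it was at 328, 338 and 354 CPM in epithelium and 70.9, 38.8, 30.3 and 35.6 in mesenchyme. The layers did not overlap in either gland, and the difference was 6.0 ± 0.26 (SE) on the log2 scale in SMG (adjusted p = 4.03e-10) and 2.95 ± 0.23 in PG (adjusted p = 2.27e-07). Sema3c, which can signal through both neuropilins, was at 173, 188, 146 and 160 CPM in SMG epithelium and at 9.68, 7.87, 12 and 11.0 in SMG mesenchyme, a log2 difference of 4.04 ± 0.46 (adjusted p = 7.83e-06). PG epithelium held 164, 90.9 and 159 CPM of Sema3c and PG mesenchyme 131, 42.8, 42.6 and 24.1. Here the layers overlapped, since mesenchyme replicate 1 was above epithelium replicate 2. The PG difference of 1.20 ± 0.43 (adjusted p = 0.0372) rose to 1.92 without mesenchyme replicate 1 (adjusted p = 2.31e-05). It missed the threshold, at 0.93 to 1.07, without PG epithelium replicate 1 or 3 or PG mesenchyme replicate 2, 3 or 4 (adjusted p 0.0668 to 0.109), and in a fit of the groups compared alone (adjusted p = 0.146).

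Sema3f was at 316, 329, 297 and 278 CPM in SMG epithelium, 82.5, 100, 118 and 88.9 in SMG mesenchyme, 272, 264 and 305 in PG epithelium and 196, 129, 202 and 170 in PG mesenchyme. Every epithelium library was above every mesenchyme library, by 1.65 ± 0.14 on the log2 scale in SMG (adjusted p = 8.55e-08) and 0.68 ± 0.14 in PG (adjusted p = 0.000931). Sema3b, also a neuropilin ligand, was low throughout, with 8.0, 8.47, 11.7 and 7.13 CPM in SMG epithelium, 2.56, 2.92, 4.10 and 2.34 in SMG mesenchyme, 28.7, 12.8 and 14.3 in PG epithelium and 3.91, 2.99, 2.33 and 3.63 in PG mesenchyme. It was higher in epithelium by 1.57 ± 0.28 in SMG (adjusted p = 0.000213) and 2.53 ± 0.30 in PG (adjusted p = 6.4e-06), with no overlap.

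The other 3 secreted ligands were not called higher in epithelium in either gland. Sema3a, the classical axon repellent of Nrp1, had means of 114 ± 27.6 CPM in SMG epithelium and 207 ± 57.1 in SMG mesenchyme, with overlapping layers. Its difference of -0.86 ± 0.30 passed the threshold (adjusted p = 0.026) but not without SMG epithelium replicate 2 or 3 or SMG mesenchyme replicate 1, 2 or 4 (adjusted p 0.0506 to 0.0731), and in PG it was 0.47 ± 0.32 (adjusted p = 0.244). Sema3g, a ligand of Nrp2, was under 4 CPM everywhere and lower in epithelium in both glands: 0, 0.104, 0 and 0.0369 CPM in SMG epithelium and 2.5 to 3.48 in SMG mesenchyme, 0, 0.505 and 0 in PG epithelium and between 1.89 and 3.82 in its mesenchyme. Its fitted difference of -6.17 in SMG (adjusted p = 2.08e-05) was -7.43 without SMG epithelium replicate 2, and that of -3.96 in PG (adjusted p = 0.000804) rests in the epithelium on replicate 2, the only PG epithelium library with a count. Without that library the fitted value was -9.11 (adjusted p = 9.37e-06), and Sema3g was at least 45.1-fold higher in PG mesenchyme, taking 3 counts over the group as the floor. Sema3e did not pass the threshold between layers, at 1.25 ± 0.52 in SMG (adjusted p = 0.0578) and 0.09 ± 0.48 in PG (adjusted p = 0.903). In SMG it passed without SMG mesenchyme replicate 1 (adjusted p = 0.0293) or PG mesenchyme replicate 1 (adjusted p = 0.0113).

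**Figure D2:**
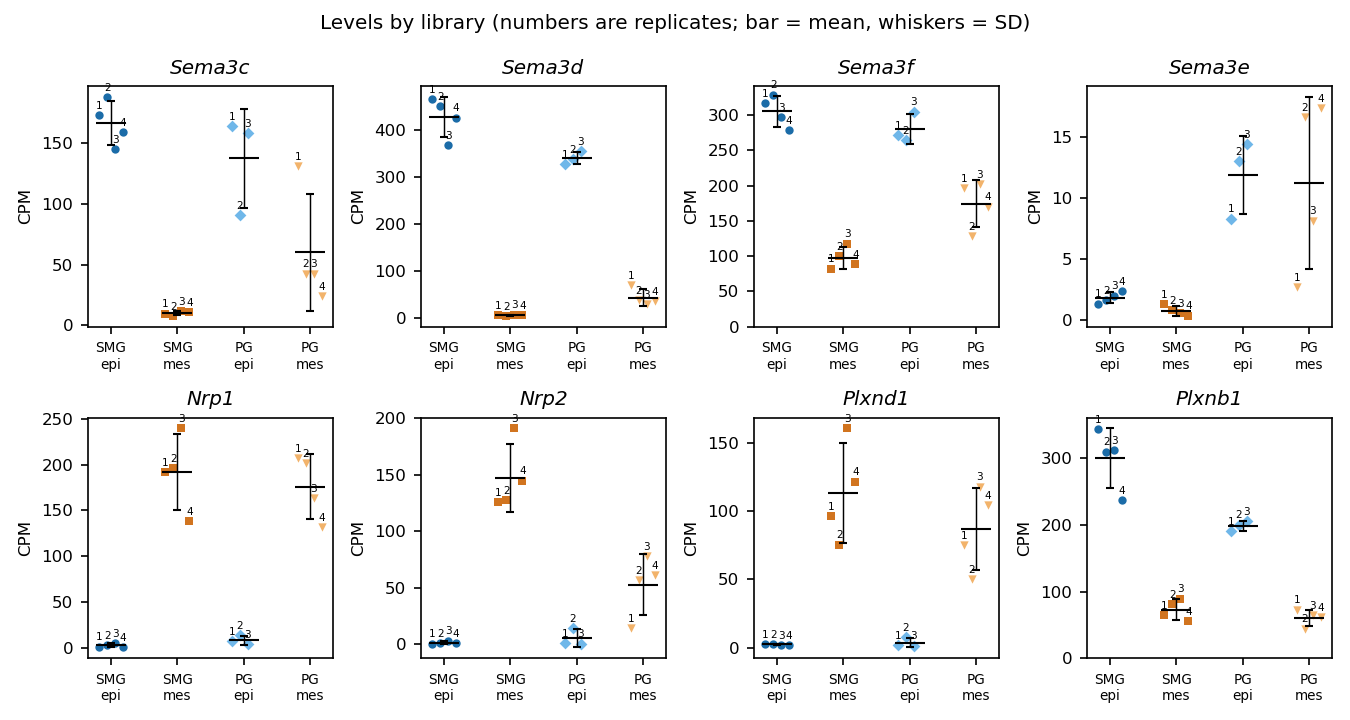
CPM of 8 genes by library on linear axes, with the replicate number over each point, the group mean as a bar and the SD as whiskers. Sema3c, Sema3d, Sema3f and Plxnb1 are high in epithelium and Nrp1, Nrp2 and Plxnd1 in mesenchyme, and PG mesenchyme replicate 1 is the highest of its group for Sema3c and Sema3d and the lowest for Nrp2 and Sema3e.

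Both neuropilins were far lower in epithelium than in mesenchyme. Nrp1 was at 1.18, 3.02, 5.24 and 0.48 CPM in SMG epithelium and at 192, 196, 239 and 138 in SMG mesenchyme. In PG epithelium it was at 6.83, 13.8 and 3.51 CPM and in PG mesenchyme at 207, 202, 163 and 132. No epithelium library reached a mesenchyme library, and the difference was -6.27 ± 0.60 in SMG (adjusted p = 1.89e-06) and -4.45 ± 0.61 in PG (adjusted p = 6.85e-05). It became -6.92 without SMG epithelium replicate 3 and -5.10 without PG epithelium replicate 2. Nrp2 was at 0.607, 0.695, 3.11 and 0.887 CPM in SMG epithelium and at 126, 127, 191 and 145 in SMG mesenchyme, a difference of -6.80 ± 1.03 (adjusted p = 0.000112) that was -7.65 without SMG epithelium replicate 3. PG epithelium held 0.666, 14.5 and 0.496 CPM of Nrp2 and PG mesenchyme 14.3, 56.9, 78.3 and 61.2, so that epithelium replicate 2 and mesenchyme replicate 1 were at almost the same level. The PG difference of -3.33 ± 0.97 (adjusted p = 0.0132) was -6.51 without PG epithelium replicate 2 and -6.82 without both libraries (adjusted p = 2.87e-06), and the fit of the groups compared alone gave an adjusted p of 0.075.

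Plxnd1, which binds Sema3e and also takes part in neuropilin complexes of blood vessels, was at 2.68, 2.64, 1.94 and 2.00 CPM in SMG epithelium and at 96.5, 75.4, 161 and 122 in SMG mesenchyme. In PG it was at 1.71, 7.58 and 1.49 CPM in epithelium and at 75.3, 50.4, 118 and 104 in mesenchyme. The layers were apart in both glands, by -5.61 ± 0.51 in SMG (adjusted p = 1.01e-06) and -4.59 ± 0.55 in PG (adjusted p = 1.94e-05), or -5.78 without PG epithelium replicate 2. The 12 endothelial markers, such as Pecam1 and Cdh5, moved with these receptors: they summed to between 12.1 and 17.5 CPM in SMG epithelium and between 574 and 758 in its mesenchyme, and to between 10.3 and 47.7 in PG epithelium and between 466 and 556 in its mesenchyme, and all 12 were lower in epithelium in both glands. The same held for all 8 mesenchymal, 12 macrophage and 8 skeletal muscle markers in both glands. Of the 4 erythroid markers, 4 were lower in SMG and 3 in PG. The 12 neuron and Schwann precursor markers were mixed, with 2 higher and 5 lower in SMG and 3 higher and 2 lower in PG. The part of any of these cell types in the Nrp1, Nrp2 and Plxnd1 differences was not tested. In bulk tissue, fewer cells of a type and less RNA per cell cannot be told apart.

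In PG epithelium replicate 2 the mesenchymal markers were at 4.66% of their mean in PG mesenchyme, and Nrp1 was at 7.84%, Plxnd1 at 8.72% and Nrp2 at 27.4% of theirs. In PG epithelium replicates 1 and 3 the corresponding values were 3.88% and 2.00% for Nrp1, 1.96% and 1.71% for Plxnd1 and 1.26% and 0.941% for Nrp2. The part of the mesenchymal RNA in these values was not tested.

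Plxnb1, Plxna1, Plxna2 and Plxna3 lay on the epithelial side. Plxnb1, the receptor of Sema4d, was at 344, 310, 312 and 237 CPM in SMG epithelium and 65.0, 81.2, 89.6 and 56.3 in SMG mesenchyme. In PG it was at 191, 200 and 206 CPM in epithelium and 73.0, 44.5, 64.5 and 61.3 in mesenchyme. Its layers did not overlap, with differences of 2.04 ± 0.16 in SMG (adjusted p = 7.81e-08) and 1.71 ± 0.17 in PG (adjusted p = 1.57e-06). Plxna2, a class A plexin that binds Sema6a, was higher in epithelium by 1.68 ± 0.13 in SMG (adjusted p = 4.91e-08) and by 1.72 ± 0.14 in PG (adjusted p = 1.76e-07). Plxna1 and Plxna3 were higher in SMG epithelium, by 1.07 ± 0.14 (adjusted p = 1.27e-05) and 0.60 ± 0.17 (adjusted p = 0.00637), whereas their PG differences of 0.31 and 0.42 did not pass (adjusted p = 0.106 and 0.0634). The Plxna3 difference in PG passed without PG mesenchyme replicate 3 (adjusted p = 0.0213), SMG mesenchyme replicate 4 (adjusted p = 0.0314) or SMG epithelium replicate 4 (adjusted p = 0.0488). Plxnb2 did not pass in either gland, at 0.14 ± 0.15 in SMG (adjusted p = 0.494) and 0.31 ± 0.17 in PG (adjusted p = 0.147).

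Plxna4, a class A plexin known from neurons and blood cells, was at 0.821, 0.347, 0.293 and 0.406 CPM in SMG epithelium and 5.70, 10.5, 19.7 and 12 in SMG mesenchyme. In PG both layers had it, with 13.0, 13.4 and 12.3 CPM in epithelium and 10.3, 17.4, 26.1 and 27.8 in mesenchyme. The SMG layers were apart by -4.67 ± 0.45 (adjusted p = 5.33e-07), and the PG layers overlapped, with -0.66 ± 0.39 (adjusted p = 0.178). Plxnc1, the receptor of Sema7a, changed sides: it was lower in epithelium in SMG (11.7, 11.8, 11.6 and 7.76 CPM against 21.9, 16.5, 19.9 and 15.4) and higher in epithelium in PG (13.0, 30.5 and 35.4 CPM against 8.21, 7.69, 6.08 and 6.44). The differences were -0.78 ± 0.25 (adjusted p = 0.0153) and 1.89 ± 0.27 (adjusted p = 3.73e-05). Plxnb3 was under 3 CPM everywhere and had no count in any SMG epithelium library and 84 in SMG mesenchyme, where it was at least 31.8-fold higher by the same floor. Of these 84 counts 48 were in SMG mesenchyme replicate 3, without which the bound was 17.9-fold. Its PG difference of -2.96 ± 0.90 (adjusted p = 0.0163) missed the threshold without PG epithelium replicate 1 (adjusted p = 0.0543) or replicate 3 (adjusted p = 0.0626) and was -4.48 without replicate 2.

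In class 4, 3 of 6 genes were higher in epithelium in each gland, 2 lower in SMG and 1 lower in PG. Sema4d was at 37.6, 31.5, 34.0 and 32.8 CPM in SMG epithelium, 5.53, 8.37, 7.07 and 5.81 in SMG mesenchyme, 17.2, 24.8 and 25.9 in PG epithelium and 11.8, 5.98, 9.08 and 7.45 in PG mesenchyme. Like its receptor Plxnb1 it was higher in the epithelium libraries without overlap, by 2.34 ± 0.20 in SMG (adjusted p = 1.72e-07) and 1.40 ± 0.21 in PG (adjusted p = 6.33e-05). Sema4a was at 40.8, 46.4, 50.9 and 41.4 CPM in SMG epithelium, 17.2, 21.1, 25.9 and 15.9 in SMG mesenchyme, 56.2, 43.8 and 67.2 in PG epithelium and 19.3, 10.1, 16.2 and 13.8 in PG mesenchyme. It was higher in epithelium by 1.17 ± 0.19 (adjusted p = 0.000109) and 1.91 ± 0.21 (adjusted p = 3.02e-06). Sema4b followed at 1.5 ± 0.16 (adjusted p = 1.29e-06) and 0.69 ± 0.17 (adjusted p = 0.00332). Sema4c, with means of 59.0 to 81.8 CPM, did not pass in SMG (adjusted p = 0.232) or PG (adjusted p = 0.0652), but passed in PG without PG mesenchyme replicate 3 (adjusted p = 0.0204) or SMG mesenchyme replicate 3 (adjusted p = 0.0442).

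The calls of the class 4 genes on the mesenchymal side were near the threshold, and leaving out any 1 of several libraries lost them. Sema4f, with means of 1.75 to 7.71 CPM and overlapping layers, was lower in epithelium by -1.15 ± 0.42 in SMG (adjusted p = 0.0291) and -1.18 ± 0.45 in PG (adjusted p = 0.0406). Its SMG call was lost without SMG epithelium replicate 1, 2 or 4 or SMG mesenchyme replicate 2, 3 or 4 (adjusted p 0.0517 to 0.0803). The PG call was lost without SMG epithelium replicate 4, PG epithelium replicate 2 or 3 or PG mesenchyme replicate 3 or 4 (adjusted p 0.0506 to 0.158). Sema4g was lower by -0.50 ± 0.20 in SMG (adjusted p = 0.0414), a call lost without SMG epithelium replicate 1, 2 or 4 or SMG mesenchyme replicate 1, 2 or 3 (adjusted p 0.06 to 0.112), and was at -0.07 ± 0.21 in PG (adjusted p = 0.83).

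Classes 5 and 6 lay mostly on the mesenchymal side. Sema5b was at 0.928, 0.104, 1.57 and 0.369 CPM in SMG epithelium and 10.6, 7.68, 14.4 and 12.7 in SMG mesenchyme. In PG it was at 1.87, 1.67 and 1.41 CPM in epithelium and 4.61, 20.1, 22.6 and 19.9 in mesenchyme, where replicate 1 was far below the others. The differences were -3.93 ± 0.60 (adjusted p = 6.15e-05; -4.59 without SMG epithelium replicate 3) and -3.34 ± 0.63 (adjusted p = 0.000562). Sema6b was at 1.36, 1.11, 1.94 and 1.29 CPM in SMG epithelium, 8.17, 7.64, 10.1 and 9.88 in SMG mesenchyme, 1.58, 2.49 and 1.72 in PG epithelium and 23.6, 16.2, 23.4 and 15.9 in PG mesenchyme. Both glands showed it lower in epithelium without overlap, by -2.65 ± 0.23 (adjusted p = 1.34e-07) and -3.35 ± 0.26 (adjusted p = 1.31e-07). Sema6d, a ligand of Plxna1, was at 10.6, 11.9, 12.5 and 9.09 CPM in SMG epithelium, 23.3, 25.4, 32.4 and 21.3 in SMG mesenchyme, 20.3, 29.0 and 17.5 in PG epithelium and 122, 79.0, 95.2 and 82.8 in PG mesenchyme. It was lower in epithelium by -1.21 ± 0.18 (adjusted p = 4.43e-05) and -2.09 ± 0.20 (adjusted p = 1.19e-06).

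Sema6c was lower in epithelium by -0.79 ± 0.14 in SMG (adjusted p = 0.000208) and -0.86 ± 0.15 in PG (adjusted p = 0.000298). Sema6a, by contrast, was not called in SMG (0.21 ± 0.15, adjusted p = 0.261) and was higher in PG epithelium, at 402, 229 and 267 CPM against 183, 140, 180 and 152 in PG mesenchyme (0.87 ± 0.16, adjusted p = 0.000435). Sema7a was the least abundant ligand per kb or next to it in every group. It was lower in PG epithelium (0.125, 0.0389 and 0.114 CPM) than in PG mesenchyme (0.219, 2.18, 1.42 and 2.23) by -3.96 ± 0.80 (adjusted p = 0.000804). Its SMG difference of -1.82 ± 0.73 (adjusted p = 0.0467) was lost without SMG epithelium replicate 2, 3 or 4, SMG mesenchyme replicate 1, 2 or 4, PG epithelium replicate 3 or PG mesenchyme replicate 3 or 4 (adjusted p 0.0508 to 0.136). Sema5a, a membrane-bound ligand with thrombospondin repeats, stood on opposite sides in the 2 glands: 134, 103, 108 and 103 CPM in SMG epithelium against 72.4, 61.5, 60.7 and 69.3 in mesenchyme, but 75.0, 63.5 and 48.0 in PG epithelium against 214, 174, 223 and 218 in mesenchyme. The differences were 0.76 ± 0.13 (adjusted p = 0.000129) and -1.74 ± 0.15 (adjusted p = 2.89e-07).

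**Figure D3:**
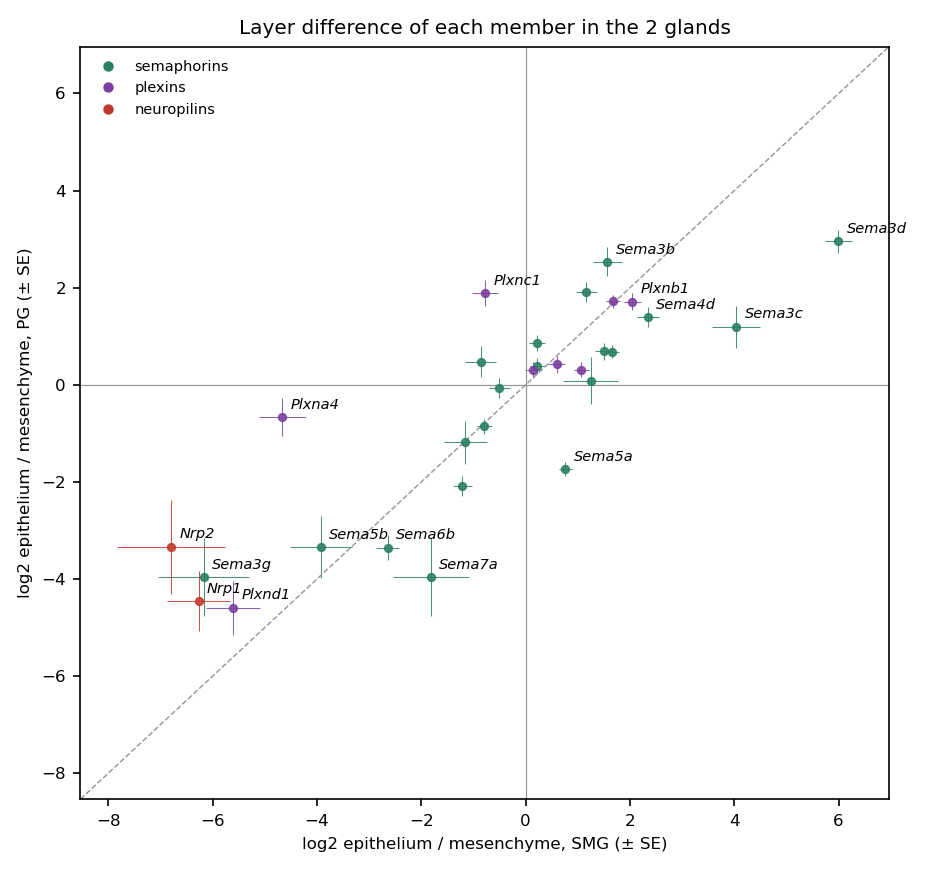
Log2 difference of epithelium against mesenchyme in SMG (horizontal) and PG (vertical) with standard errors for 30 genes; Plxnb3 is left out because it has no count in SMG epithelium. Points on the dashed line have the same difference in both glands; Sema3d lies at 6.0 in SMG and 2.95 in PG, Plxna4 at -4.67 and -0.66, and Sema5a and Plxnc1 have opposite signs in the 2 glands.

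Whether the layer difference itself differed between glands was tested as an interaction, written as the PG difference minus the SMG difference. Of the 31 genes, 2 were above 0 and 8 below, or 32.3% against 14.3% of all genes (5.97% above, 8.32% below). Without PG mesenchyme replicate 1 and PG epithelium replicate 2, 4 were above and 7 below. That fit gained Sema4a (1.06, adjusted p = 0.0158) and Sema6a (0.89, adjusted p = 0.0112) above 0 and lost Sema4d (adjusted p = 0.0737). With all libraries, the genes above 0 were Plxna4 (4.00 ± 0.58, adjusted p = 0.000292) and Plxnc1 (2.67 ± 0.37, adjusted p = 0.00019). Among those below 0, the largest were Sema3d (-3.04 ± 0.32, adjusted p = 2.78e-05), Sema3c (-2.84 ± 0.62, adjusted p = 0.00807) and Sema5a (-2.5 ± 0.19, adjusted p = 1.25e-06). The Sema3c value was -2.12 without PG mesenchyme replicate 1 (adjusted p = 0.000575) and -1.88 without both libraries (adjusted p = 0.000426). Sema3f was at -0.96 ± 0.20 (adjusted p = 0.00358).

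For the other 4 genes the interaction was near the threshold, and leaving out any 1 of several libraries lost the call. Sema4b (-0.80 ± 0.23, adjusted p = 0.0297) lost its call without SMG epithelium replicate 1, 2 or 3, SMG mesenchyme replicate 1, PG epithelium replicate 1 or 3 or PG mesenchyme replicate 3 (adjusted p 0.052 to 0.0947). Sema4d (-0.94 ± 0.29, adjusted p = 0.0416) lost it without any 1 of the SMG epithelium libraries, SMG mesenchyme replicate 1, 3 or 4, PG epithelium replicate 1 or 2 or PG mesenchyme replicate 1 or 3 (adjusted p 0.0523 to 0.113). For Sema6d (-0.88 ± 0.27, adjusted p = 0.0383) the libraries were SMG epithelium replicates 1, 2 and 3, SMG mesenchyme replicates 1, 2 and 4, PG epithelium replicates 1 and 3 and PG mesenchyme replicates 1 and 3 (adjusted p 0.0555 to 0.11). Plxna1 (-0.76 ± 0.21, adjusted p = 0.024) lost it without SMG epithelium replicate 1 or PG epithelium replicate 1 or 3 (adjusted p 0.0509 to 0.0698). The neuropilins did not pass, with Nrp1 at 1.82 ± 0.74 (adjusted p = 0.133) and Nrp2 at 3.46 ± 1.28 (adjusted p = 0.0961). Nrp1 passed without SMG epithelium replicate 3 (adjusted p = 0.0361) and Nrp2 without PG epithelium replicate 3 (adjusted p = 0.0462).

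In the epithelium 7 of the 31 genes were higher in PG and 3 lower, or 32.3% against 11.7% of all genes (7.07% higher, 4.66% lower). Without the 2 libraries that stood apart, 7 were higher and 2 lower. Plxna4 rose most, from 0.467 ± 0.241 CPM (SD, n = 4) in SMG epithelium to 12.9 ± 0.563 (n = 3) in PG epithelium, by 4.77 ± 0.46 on the log2 scale (adjusted p = 9.55e-06). Sema3e, the ligand of Plxnd1, was at 1.36, 1.63, 2.01 and 2.40 CPM in SMG epithelium and at 8.33, 13.1 and 14.4 in PG epithelium. These did not overlap, and the difference was 2.69 ± 0.51 (adjusted p = 0.00254). Plxnc1 was higher in PG epithelium by 1.29 ± 0.26 (adjusted p = 0.00418), Sema6d by 1.01 ± 0.20 (adjusted p = 0.00274), Sema6a by 0.82 ± 0.16 (adjusted p = 0.0034) and Plxna2 by 0.61 ± 0.14 (adjusted p = 0.00714).

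Sema3b was higher in PG epithelium by 1.07 ± 0.29 (adjusted p = 0.022), a call lost without SMG epithelium replicate 1, 2 or 4 (adjusted p 0.0582 to 0.061) or PG epithelium replicate 1 (0.63, adjusted p = 0.154). Lower in PG epithelium were Sema5a (-0.85 ± 0.14, adjusted p = 0.00091), Sema4b (-0.61 ± 0.17, adjusted p = 0.0271) and Plxnb1 (-0.60 ± 0.17, adjusted p = 0.0347). The Sema4b call was lost without SMG epithelium replicate 1, 2 or 3 or PG epithelium replicate 1 or 3 (adjusted p 0.0638 to 0.116). Plxnb1 lost its call without SMG epithelium replicate 1, 2 or 3 or any 1 of the PG epithelium libraries (adjusted p 0.0704 to 0.0973). Sema3c, Sema3d and Sema3f, the abundant secreted ligands, were at -0.27 ± 0.43, -0.33 ± 0.22 and -0.12 ± 0.14 between the epithelia and did not pass (adjusted p = 0.765, 0.404 and 0.66). Sema3d, at 368 to 465 CPM in SMG and 328 to 354 in PG epithelium, passed in the fit of the groups compared alone (-0.32, adjusted p = 0.0455). Markers of neurons and Schwann precursors, a cell type in which Plxna4 is also known, summed to 252 to 322 CPM in SMG epithelium and 293 to 380 in PG epithelium, with 3 of 12 higher in PG and none lower. Their part in the Plxna4 difference was not tested.

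In the mesenchyme 11 of the 31 genes were higher in PG and 1 lower, or 38.7% against 24.7% of all genes (15.3% higher, 9.43% lower). Of the 11, 9 were among the 20 semaphorins and 2 among the 11 plexins and neuropilins. Called in either direction were 45% of the semaphorins and 27.3% of the plexins and neuropilins, a split that was not tested. Without the 2 libraries that stood apart, 12 were higher and 4 lower, with no share of all genes given for that fit. Plxna4 was gained there as higher (0.99, adjusted p = 0.0446). Gained as lower were Sema4a (-0.58, adjusted p = 0.0328), Sema4g (-0.65, adjusted p = 0.0404) and Nrp2. Sema3e was at 1.34, 0.845, 0.56 and 0.363 CPM in SMG mesenchyme and at 2.72, 16.7, 8.16 and 17.4 in PG mesenchyme, which was above it in every library (3.85 ± 0.53, adjusted p = 9.66e-05). Sema3d rose from 6.70 ± 1.20 CPM (SD, n = 4) to 43.9 ± 18.3 (n = 4), by 2.71 ± 0.23 (adjusted p = 1.51e-06). Sema3c went from 10.2 ± 1.80 to 60.2 ± 48.2 CPM, by 2.57 ± 0.44 (adjusted p = 0.000846), or 1.85 without PG mesenchyme replicate 1 (adjusted p = 6.3e-05). Sema6d rose from 25.6 ± 4.83 to 94.8 ± 19.6 CPM, by 1.89 ± 0.18 (adjusted p = 3.3e-06). No library of one gland overlapped the other for these 4 genes, which were named for the size of their change. The share of all genes without such overlap is not given.

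Further ligands higher in PG mesenchyme were Sema5a (1.65 ± 0.13, adjusted p = 6.47e-07), Sema6b (1.15 ± 0.21, adjusted p = 0.000782) and Sema3f (0.84 ± 0.13, adjusted p = 0.000279). Sema7a was higher by 1.93 ± 0.60 (adjusted p = 0.028), a call lost without SMG mesenchyme replicate 1 or 3 or PG mesenchyme replicate 2 or 4 (adjusted p 0.0739 to 0.0784). Sema6c was higher by 0.50 ± 0.14 (adjusted p = 0.016), but not without SMG mesenchyme replicate 1 (adjusted p = 0.0532). Of the receptors, Plxna2 was higher by 0.57 ± 0.13 (adjusted p = 0.00399) and Plxna1 by 0.50 ± 0.14 (adjusted p = 0.0178), the latter not without SMG mesenchyme replicate 1 or PG mesenchyme replicate 3 or 4 (adjusted p 0.058 to 0.0632). Plxnc1 was the only gene called lower in PG mesenchyme with all libraries (-1.37 ± 0.25, adjusted p = 0.000917). Sema4g was close to the threshold, at -0.55 ± 0.20 (adjusted p = 0.051). It passed, for example, without SMG mesenchyme replicate 4 (adjusted p = 0.00387) or PG mesenchyme replicate 1 (adjusted p = 0.0373). Nrp1 was at -0.12 ± 0.46 (adjusted p = 0.884) and Plxnd1 at -0.39 ± 0.41 (adjusted p = 0.553). Nrp2 was at -1.48 ± 0.78 (adjusted p = 0.201) although the glands did not overlap, and passed without PG epithelium replicate 2 (adjusted p = 0.0396) or without both libraries (-1.17, adjusted p = 0.0255).

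**Figure D4:**
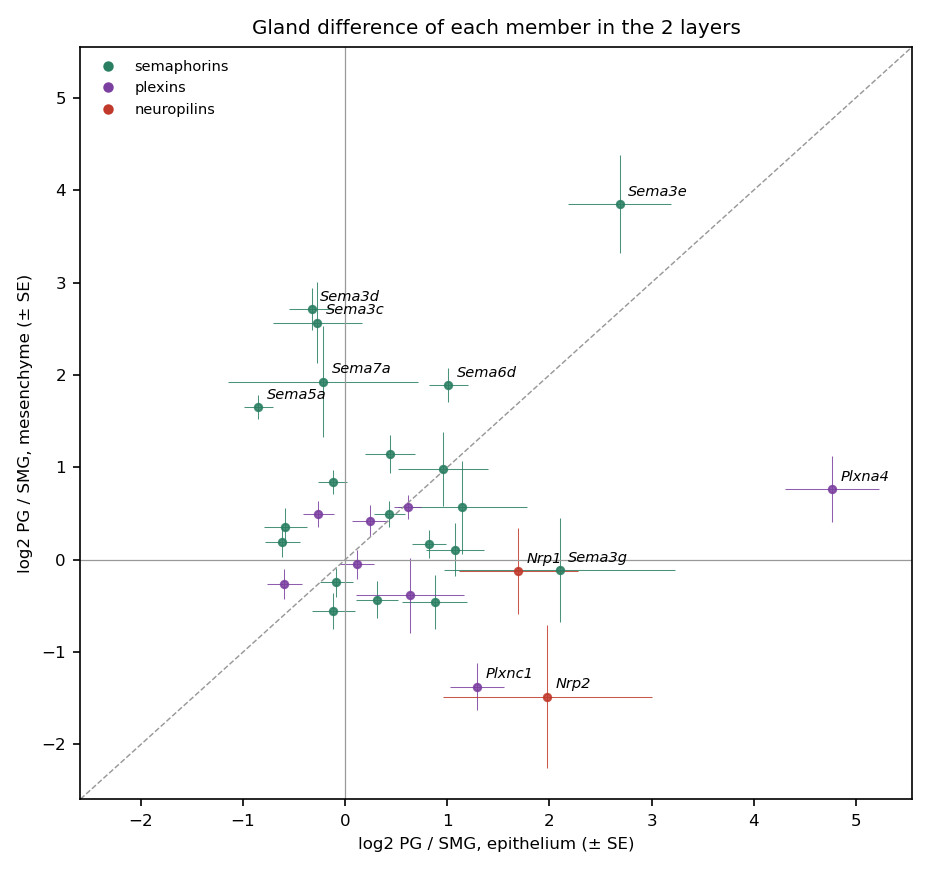
Log2 difference of PG against SMG in epithelium (horizontal) and mesenchyme (vertical) with standard errors for 30 genes; Plxnb3 is left out because it has no count in SMG epithelium. Sema3e is raised in both layers (2.69 and 3.85), Plxna4 lies far to the right at 4.77, and Sema3c and Sema3d are raised in the mesenchyme (2.57 and 2.71) with values of -0.27 and -0.33 in the epithelium.

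Cell type markers moved with the mesenchyme comparison. The summed epithelial markers were higher in PG mesenchyme libraries (137 to 771 CPM) than in SMG mesenchyme (12.9 to 33.3), and 8 of the 9 were called higher. As a share of the PG epithelium mean, PG mesenchyme replicates 1 to 4 held 15.4%, 3.73%, 2.73% and 4.61% of these markers, 20.8%, 11.4%, 8.91% and 10.5% of Sema3d, 95.1%, 31%, 30.9% and 17.4% of Sema3c and 69.9%, 45.9%, 72.3% and 60.8% of Sema3f. In each of the 4 libraries the share of each of these ligands was larger than that of the markers. In the SMG mesenchyme libraries Sema3d was at 1.18% to 1.84% and Sema3c at 4.72% to 7.22% of SMG epithelium, with the markers at 0.252% to 0.648%. The 8 skeletal muscle markers, such as Myog and Myod1, summed to 37.7 to 197 CPM in SMG mesenchyme and 889 to 1949 in PG mesenchyme, and all 8 were higher. The part of epithelial or muscle RNA in the ligand differences was not tested.

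**Figure D5:**
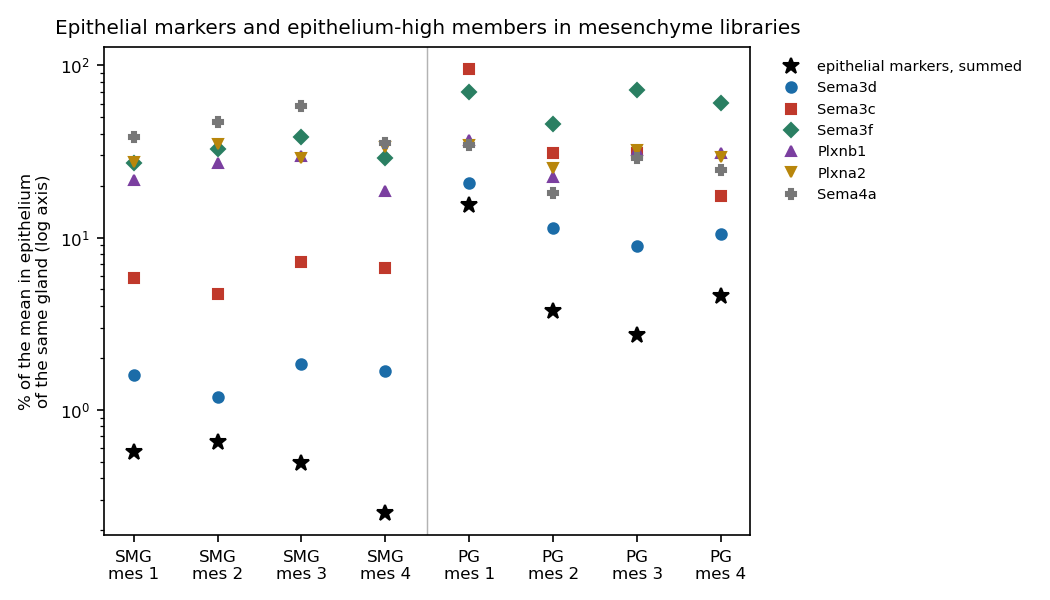
Level of the summed epithelial markers (stars) and of 6 genes in each mesenchyme library as a percentage of the mean in the epithelium of the same gland, on a log axis. The markers are below 1% in SMG mesenchyme and between 2.73% and 15.4% in PG mesenchyme, and in every library the 6 genes are above the markers.

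A list of 52 genes of the wider pathway, co-receptors and receptor partners (15), other neuropilin ligands (5), proprotein convertases that cleave class 3 semaphorins (3) and intracellular effectors (29), was tested in the same fits, and all 52 passed the filter. In SMG 11 were higher in epithelium and 23 lower (65.4%, against 51.9% of all genes), and in PG 8 were higher and 26 lower (65.4% against 46.0%), with median log2 differences of -0.16 and -0.38 against 0 and -0.0058 over all genes. PG against SMG, 6 were higher and 3 lower in epithelium (17.3% against 11.7%) and 15 higher and 1 lower in mesenchyme (30.8% against 24.7%). The interaction was above 0 for 5 and below for 8 (25% against 14.3%). The list was chosen with earlier results of these data known.

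Receptor partners split between the layers. Kdr and Flt1, the receptors of vascular endothelial growth factor that work with neuropilins and are also in the endothelial marker list, were lower in epithelium: Kdr had means of 0.176 and 2.45 CPM in SMG and PG epithelium and 126 and 93.5 in the mesenchymes (-9.42 and -5.24 on the log2 scale, adjusted p = 4.51e-06 and 0.000238). Flt1 differed by -8.31 in SMG and -5.43 in PG (adjusted p = 1.47e-06 and 4.39e-05). Itga1, an integrin subunit that pairs with the Sema7a-binding Itgb1, was lower in epithelium by -6.35 and -5.34 (adjusted p = 1.69e-07 and 2.94e-06). Mst1r, a receptor kinase related to Met, was lower in epithelium by -4.63 and -3.39 (adjusted p = 2.91e-06 and 0.000133), with means of 0.218 and 0.446 CPM in SMG and PG epithelium and 5.49 and 4.72 in the mesenchymes. On the epithelial side was Erbb2, a receptor kinase that associates with Plxnb1, with means of 291 and 288 CPM in SMG and PG epithelium and 71.2 and 127 in the mesenchymes (2.03 and 1.18, adjusted p = 6.94e-08 and 3.64e-05). Met, the hepatocyte growth factor receptor and another partner of class B plexins, had means of 43.1 CPM in SMG epithelium, 7.08 in SMG mesenchyme, 35.2 in PG epithelium and 46.9 in PG mesenchyme. Its layers differed in SMG (2.60 ± 0.30, adjusted p = 4.68e-06) but did not pass in PG (-0.41 ± 0.30, adjusted p = 0.292), and the interaction was -3.02 ± 0.43 (adjusted p = 0.000328). Chl1, an adhesion molecule of the L1 family, was higher in PG than in SMG epithelium, at 25.8 against 4.71 CPM (2.45 ± 0.58, adjusted p = 0.0123). For Chl1 the libraries of the 2 epithelia overlapped.

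Vegfa, the neuropilin ligand made by many epithelia, had means of 95.4 to 135 CPM in the 4 groups and did not differ past the threshold between layers in SMG (adjusted p = 0.236) or PG (adjusted p = 0.313). Vegfc was lower in epithelium by -4.12 ± 0.36 in SMG (adjusted p = 1.88e-07) and -3.94 ± 0.41 in PG (adjusted p = 2.11e-06). Among the convertases, Pcsk6 was higher in epithelium by 1.03 ± 0.16 in SMG (adjusted p = 4.45e-05) and 2.02 ± 0.17 in PG (adjusted p = 2.38e-07). Pcsk5 was lower in PG than in SMG epithelium, at 18.3 against 56.5 CPM (-1.62 ± 0.21, adjusted p = 0.000116). Furin did not pass between layers in SMG or PG (adjusted p = 0.5 and 0.529). Dpysl5, a member of the collapsin response mediator family that acts downstream of Sema3a in neurons, had means of 76.4 CPM in SMG epithelium, 3.39 in SMG mesenchyme, 52.6 in PG epithelium and 18.1 in PG mesenchyme. Its layers differed by 4.49 ± 0.39 in SMG (adjusted p = 4.25e-07) and 1.54 ± 0.36 in PG (adjusted p = 0.00292), with an interaction of -2.95 ± 0.52 (adjusted p = 0.00179). In PG the libraries of the 2 layers overlapped for Dpysl5.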

How the data were processed

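The deposited files of the authors hold counts of reads per Ensembl gene, in whole numbers, for 15 libraries, and CPM, which equalled the counts over 1 constant per library (100.00% of values within 0.001 reads). Per the labels' protocols, RNA was isolated with TRIzol (RNA integrity above 8.7), amplified with SMART-Seq v4, made into Nextera XT libraries and sequenced on a HiSeq instrument. Tools named in the submitters' processing notes are STAR 2.5.2a, limma, edgeR and DESeq2, with mm10 and GRCm38.p3 as builds. Which program counted reads, with which strand setting and annotation, is not given in the sources used here.

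Libraries were grouped by title. Neither library sizes nor tests used the 92 spike-in rows, symbols matched 48349 identifiers and 360 had none. The main test was edgeR 4.0.16's quasi-likelihood F-test (robust, two-sided; filterByExpr by group, TMM scaling, 1 mean per group over all 15 libraries), with Benjamini-Hochberg adjustment over 18940 genes and a threshold of 0.05. Standard errors are the log2 change divided by the square root of F. Exon lengths come from GENCODE M21.

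Described library by library were genes past the threshold with a log2 change of at least 1 and at least 5 CPM in the higher group, up to 4 per direction and comparison, and both neuropilins; Sema3f, Sema3g, Sema6a and Sema7a were added after their values were seen. The genes and lists were chosen with earlier results of these data known. Alternatives were median-ratio scaling, DESeq2 1.42.0, no filter on low counts, only the groups compared, a replicate block, limma 3.58.1 on log2(deposited CPM + 0.5), each library left out, and the 2 libraries that stood apart left out together. All replicate pairs differed by more than sampling noise.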

Additional observations from a re-analysis of the deposited data

Results flagged for a closer look

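In 8 of 93 gene groups of 4 libraries, 1 library lay apart from the other 3 by Dixon's criterion; chance alone gives about 1 in 20. Sema3a was at 121 CPM in SMG mesenchyme replicate 3, with the others at 230 to 240. Replicate 3 of SMG mesenchyme also had the highest Sema6c (67.6 CPM, others 52.9 to 55.1) and Plxnb3 (2.07 CPM, others 0.323 to 0.615). Sema4g was at 9.19 CPM in SMG mesenchyme replicate 4, with the others at 16.2 to 17.5. In PG mesenchyme replicate 1, the library with the most epithelial marker RNA of its group, Sema5b was at 4.61 CPM and in the others at 19.9 to 22.6. Among the SMG epithelium libraries, replicate 1 was high for Sema7a (0.214 CPM, others 0.0695 to 0.0739), replicate 4 low for Plxnc1 (7.76 CPM, others 11.6 to 11.8) and replicate 3, the one with the most mesenchymal marker RNA, high for Nrp2 (3.11 CPM, others 0.607 to 0.887).

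The layer difference differed between glands in the interaction test for 10 of the 31 genes, given as log2 of PG minus SMG: Sema3c at -2.84, Sema3d at -3.04, Sema3f at -0.96, Sema4b at -0.80, Sema4d at -0.94, Sema5a at -2.5, Sema6d at -0.88, Plxna1 at -0.76, Plxna4 at 4.00 and Plxnc1 at 2.67. The partner genes named by the same rule of size, up to 4 on each side, were L1cam (3.76), Mras (1.12), Mical3 (1.05), Dpysl4 (1.03), Met (-3.02), Dpysl5 (-2.95), Pcsk5 (-1.79) and Rras2 (-0.87). The epithelial markers showed the same sign as the first 8 of the family genes, with 8 of 9 markers below 0 and a median of -4.11. All 9 markers were higher in PG epithelium than in PG mesenchyme, whereas Sema5a and Sema6d were lower (-1.74 and -2.09). The part of epithelial RNA in the interactions was not tested.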

How the results depend on the processing

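Of 155 gene comparisons of the family, 82 passed the threshold, 64 of them under every alternative, and none changed sign. The counts of family and partner genes called stayed within 1.5 times of the reported ones under every alternative run: family counts ranged from 23 to 28 for the SMG layers, 20 to 25 for the PG layers, 7 to 14 between epithelia, 9 to 16 between mesenchymes and 7 to 12 for the interaction. Median-ratio scaling lost 0 calls and gained 1, DESeq2 lost 0 and gained 8, no filter on low counts lost 9, fitting only the groups compared lost 6 of 70 and gained 6, limma on the deposited CPM lost 2, and leaving out 1 library lost 2 to 10. Same-numbered libraries of the 2 layers correlated at 0.0136 to 0.283 in SMG and -0.124 to 0.0721 in PG, and 6 of 8 and 2 of 6 libraries correlated best with their own number. In SMG 3 of the 4 pairs exceeded 0.1, a hint of pairing from the data and not the design, but the labels tie no number to an embryo and not every pair exceeded it, so the numbers were not used as pairs. With the replicate block, the calls lost were Sema4g (adjusted p = 0.0834) and Sema7a (0.0812) between SMG layers, Sema4f (0.121) between PG layers, Sema3b (0.0592) between epithelia and the Sema4b (0.065), Sema4d (0.119) and Plxna1 (0.0976) interactions. Gained with the block were Sema3e (0.0456) between SMG layers, Sema3a (0.0022), Sema4c (0.0213) and Plxna3 (0.0294) between PG layers, Plxna3 (0.0246) between mesenchymes and the Sema3a (0.00066) and Sema4a (0.035) interactions. In all, 7 calls were lost and 7 gained, and 26, 25, 9, 13 and 9 genes were called in the 5 comparisons in the order above. Group levels under about 1 CPM, such as those of Sema3g, Sema7a and Plxnb3 in the epithelia, rest on few reads. With both doubted libraries left out, PG epithelium has 2 libraries.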
